A study of Mus musculus with 19 samples.

Results

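The Dlk1-Meg3 domain is an imprinted region of mouse chromosome 12, and 5 of its genes are described here: Dlk1, Meg3, Rian, Mirg and Rtl1. They were taken by name from the 54119 genes that the deposited transcript table gave after summing transcripts per gene. Meg3, Rian and Mirg rose strongly from mouse embryonic stem cells (mESC) to epiblast-like cells (EpiLC) in every genotype, whereas Dlk1 and Rtl1 stayed below 1 TPM (a relative transcript level corrected for transcript length) in all 19 libraries. Meg3, Rian and Mirg passed the filter for low values and were tested, and the other two did not.

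In this domain the genes are read from one parental chromosome each. Dlk1, which encodes a membrane protein related to Notch ligands, and Rtl1, which encodes a retrotransposon-derived protein needed in the placenta, are expressed from the paternal copy. The non-coding RNAs Meg3, Rian and Mirg are expressed from the maternal copy, with Rian the host of many C/D box snoRNAs and Mirg the host of many miRNAs. A germline-methylated control region between Dlk1 and Meg3 sets which copy is read, and loss of Meg3 expression is a known marker of mouse pluripotent lines whose maternal copy has become silenced. TPM values hold no allele information, so the parental copy that gave the RNA was not measured.

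The study compared wildtype XX cells of the LF2 line, Tet3-/- cells of the LF2 line (XX) and wildtype XY cells of the E14 line, to ask whether the methylcytosine oxidase TET3 is needed for the change from mESC to EpiLC. All mESC were grown in N2B27 with inhibitors of GSK3 and MEK1/2 and with LIF, and EpiLC were derived from them with FGF5 and Activin A, without LIF, over 5 days. There were 3 XX, 3 XY and 4 Tet3-/- libraries of mESC (mutants #1 to #4), and 3 XX, 3 XY and 3 Tet3-/- libraries of EpiLC (mutants #1, #3 and #4). Sex and cell line cannot be told apart in the comparisons of XX with XY. The labels do not say whether libraries of a group came from separate cultures, or whether the mutants are separate clones, so p-values measure the spread between these libraries, which may be technical.

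Tet3, the targeted gene, had 0.761 ± 0.269 TPM (SD, n = 3) in XX mESC and 0.661 ± 0.174 TPM (SD, n = 4) in Tet3-/- mESC, a log2 difference of -0.08 (limma adjusted p = 0.885), so its RNA level does not check the mutant labels. Summed TPM of 6 naive markers ranged from 194 to 490 in mESC and from 7.33 to 36.3 in EpiLC, in the directions that the labels give. The sum of 4 EpiLC markers ranged from 6.86 to 29.3 TPM in mESC and from 38.8 to 317 TPM in EpiLC. Of these, Fgf5, Pou3f1 and Dnmt3b rose on average in every genotype. Mean Otx2 rose in XY (1.74 to 62.6 TPM) but fell in XX (18.9 to 11.0 TPM) and in Tet3-/- (20.6 to 17.0 TPM, with overlapping libraries). Mutant #3 of EpiLC stood apart from mutants #1 and #4 in markers of other cell types, and results that rest on it are given with and without it. The XX, Tet3-/- and XY transitions had median log2 fold changes of 0.14, -0.13 and 0.54 across the 14972 tested genes, so most tested genes had more TPM in XY EpiLC than in XY mESC. TPM sum to 1000000 in each library, so this is a shift in shares. The single RNA Rn7s1 held 23.5% to 27.4% of TPM in XY EpiLC, 24.7% to 33.4% in XY mESC and 38.9% to 39.5% in XX EpiLC. Its part in these medians was not tested. Values after median-of-ratios scaling, which brings these medians to between -0.05 and -0.03, are therefore given wherever they change a statement.

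The start of Meg3 is shown because the 3 maternal RNAs rose together and Meg3 lies first in their run, with those of Rian and Dlk1 for comparison. The windows are RefSeq sequence of GRCm38.p6, plus strand, from 250 bases before to 50 bases after the annotated start. Meg3 is at chr12:109540746-109541045, Rian at chr12:109603695-109603994 and Dlk1 at chr12:109452573-109452872. Capitals mark matches, on either strand, to 3 motifs: the cAMP response element TGACGTCA, the TATA box TATAAA, and TGCCGC, the hexamer that the imprint factor ZFP57 is known to bind when methylated.
Meg3: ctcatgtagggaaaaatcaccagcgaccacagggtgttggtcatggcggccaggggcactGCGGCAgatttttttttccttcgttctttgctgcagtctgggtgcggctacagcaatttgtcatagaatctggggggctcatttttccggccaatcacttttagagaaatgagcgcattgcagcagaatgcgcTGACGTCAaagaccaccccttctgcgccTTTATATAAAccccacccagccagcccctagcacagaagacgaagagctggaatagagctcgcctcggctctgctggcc
Rian: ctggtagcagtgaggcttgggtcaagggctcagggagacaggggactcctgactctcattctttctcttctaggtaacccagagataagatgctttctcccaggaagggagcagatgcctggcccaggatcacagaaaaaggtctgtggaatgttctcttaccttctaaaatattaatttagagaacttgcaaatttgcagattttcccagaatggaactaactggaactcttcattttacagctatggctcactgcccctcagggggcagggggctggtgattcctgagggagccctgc
Dlk1: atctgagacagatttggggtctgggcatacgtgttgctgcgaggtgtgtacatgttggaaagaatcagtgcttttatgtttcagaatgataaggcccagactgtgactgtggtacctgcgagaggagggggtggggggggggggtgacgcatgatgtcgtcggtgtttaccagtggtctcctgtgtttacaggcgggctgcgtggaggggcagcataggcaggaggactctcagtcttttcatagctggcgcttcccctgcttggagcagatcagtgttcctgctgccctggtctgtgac
The Meg3 window held 1 match to TGACGTCA, 2 overlapping matches to TATAAA, one on each strand, and 1 match to TGCCGC, with 13 CG dinucleotides. Of 32851 windows of the same length, 1.79% held TGACGTCA, 13.6% TATAAA and 11.6% TGCCGC, and the median window had 7 CG. At least 13 CG were found in 37.9% of these windows. The Rian window had 0 CG and the Dlk1 window 9, and neither held any of the 3 motifs. The Mirg window, not shown, had 10 CG and none of the 3 motifs. These matches describe the letters of the windows only.

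Between Dlk1 and Dio3 the annotation lists 67 miRNA and 23 snoRNA rows, and 17 of the miRNA rows and 1 snoRNA row had a value above 0 in any library. The RefSeq miRNA table matched 61 gene symbols of the region, with 113 distinct mature sequences. The arms shown are those of Mir1193, Mir1197, Mir1188 and Mir433, the hairpins with TPM values described further on, together with the arms of other domain miRNAs that share a seed with one of them. Capitals mark the seed, bases 2 to 8 from the 5′ end.
mmu-miR-1193-5p: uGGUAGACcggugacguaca
mmu-miR-379-5p: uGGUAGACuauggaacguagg
mmu-miR-1193-3p: uAGGUCACccguuuuacuauc
mmu-miR-370-5p: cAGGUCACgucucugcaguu
mmu-miR-1197-5p: cGGUUGACcaugguguguacg
mmu-miR-758-5p: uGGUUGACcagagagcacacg
mmu-miR-1197-3p: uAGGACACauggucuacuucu
mmu-miR-1188-5p: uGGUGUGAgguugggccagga
mmu-miR-1188-3p: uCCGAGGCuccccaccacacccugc
mmu-miR-433-5p: uACGGUGAgccugucauuauuc
mmu-miR-433-3p: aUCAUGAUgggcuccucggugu
The 5p arm of miR-1193 shares its seed with miR-379-5p, the 3p arm of miR-1193 with miR-370-5p, and the 5p arm of miR-1197 with miR-758-5p. Of all the domain's mature sequences, 9 seeds occurred in more than 1 miRNA.

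Meg3 (ENSMUSG00000021268.17, chr12:109541001-109571726, GRCm38, plus strand) is a spliced long non-coding RNA. In mESC its level was 15.4, 10.2 and 25.2 TPM in XX 1 to 3, 40.3, 42.9, 32.2 and 48.2 TPM in Tet3-/- mutants #1 to #4, and 28.4, 65.7 and 73.3 TPM in XY 1 to 3. In EpiLC it was 118, 202 and 208 TPM in XX, 135, 200.2 and 83.1 TPM in mutants #1, #3 and #4, and 230.2, 496 and 485 TPM in XY. The lowest EpiLC library, mutant #4, lay above the highest mESC library, XY 3. No library was near 0, and within each state XX 1 and XY 1 of EpiLC and XY 1 and XX 2 of mESC were the lowest of their groups.

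Rian (ENSMUSG00000097451.10, chr12:109603940-109661716, plus strand) starts 62.9 kb after the start of Meg3. Its level in mESC was 10.9, 17.1 and 15.6 TPM in XX, 29.4, 58.8, 45.5 and 38.7 TPM in mutants #1 to #4, and 59.5, 75.6 and 87.0 TPM in XY. In EpiLC it was 163, 181 and 190.4 TPM in XX, 177, 379 and 160.5 TPM in mutants #1, #3 and #4, and 301, 436 and 437 TPM in XY. The 3 mESC groups did not overlap for Rian: XX was lowest, the mutants lay between, and XY was highest. In EpiLC mutant #3 lay among the XY libraries, and the other mutants lay among or just below the XX libraries.

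Mirg (ENSMUSG00000097391.8, chr12:109729764-109749460, plus strand) starts 189 kb after the start of Meg3. It was the least abundant of the 3 per transcript length in every library, with 2.43, 5.72 and 4.18 TPM in XX mESC, 9.96, 21.4, 16.4 and 10.5 TPM in mutants #1 to #4, and 18.6, 17.0 and 26.2 TPM in XY mESC. In EpiLC it had 43.8, 54.6 and 53.1 TPM in XX, 41.7, 112 and 43.7 TPM in mutants #1, #3 and #4, and 112, 174 and 183 TPM in XY. Mirg showed the same order of groups as Rian in mESC, except that mutant #2 overlapped the XY libraries. In EpiLC mutant #3 stood just below the lowest XY library.

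**Figure D1:**
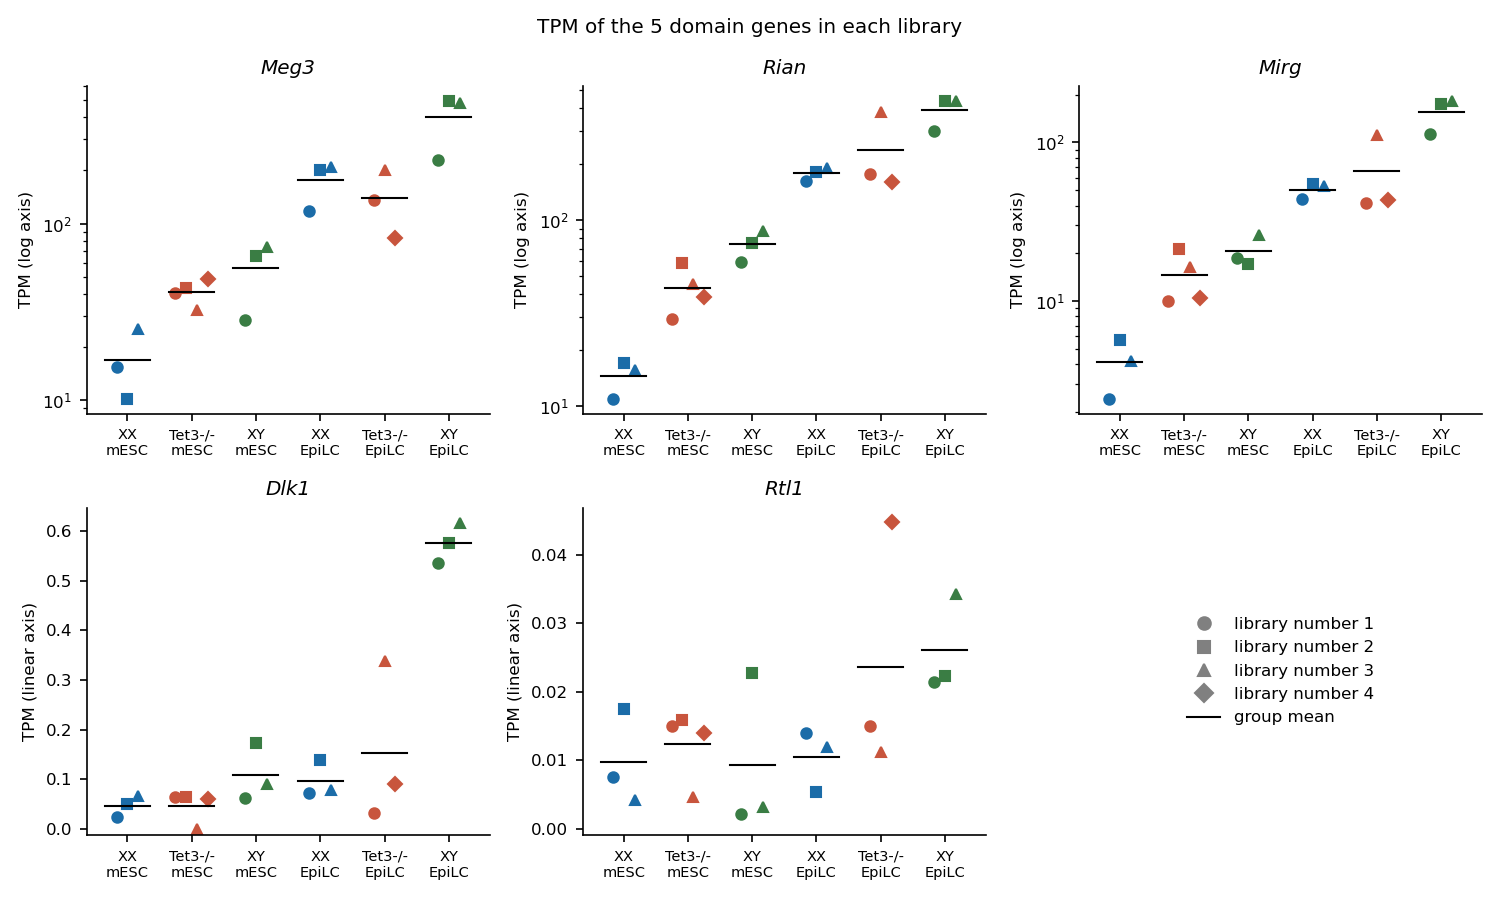
TPM of the 5 genes in each of the 19 libraries by group, one point per library with its shape giving the library number and a line at the group mean; Meg3, Rian and Mirg are on log axes, Dlk1 and Rtl1 on linear axes. All EpiLC points of Meg3, Rian and Mirg lie above all mESC points, and only the 3 XY EpiLC libraries and mutant #3 exceed 0.3 TPM of Dlk1.

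Dlk1 (ENSMUSG00000040856.17, chr12:109452823-109463336, plus strand) was close to 0 in most libraries. It ranged from 0.0231 to 0.0673 TPM in XX mESC, from 0 to 0.0650 TPM in Tet3-/- mESC and from 0.0625 to 0.173 TPM in XY mESC. In EpiLC it had 0.0733, 0.139 and 0.0792 TPM in XX, 0.0318, 0.337 and 0.0906 TPM in mutants #1, #3 and #4, and 0.536, 0.576 and 0.617 TPM in XY. The XY EpiLC libraries lay above all others, with mutant #3 next. With no filter on low values, limma called Dlk1 higher in the XY transition (log2 fold change 0.51, adjusted p = 0.000176) and lower in XX than in XY EpiLC (-0.52, adjusted p = 0.000328). The XX and Tet3-/- transitions of Dlk1 gave 0.07 and 0.13 and were not called (limma adjusted p = 0.857 and 0.343). Adding 1 before taking logs compresses values this low.

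Rtl1 (ENSMUSG00000085925.3, chr12:109589193-109600330, minus strand) never exceeded 0.0448 TPM. Group means ran from 0.00934 TPM in XY mESC to 0.0260 TPM in XY EpiLC, and no comparison of it was called in the fit without a filter. Both paternally expressed genes thus had levels far below the maternally expressed RNAs in the same libraries. In XY EpiLC, where Dlk1 was highest, its mean of 0.576 ± 0.0403 TPM (SD, n = 3) stood beside 404 ± 150.2 TPM (SD, n = 3) of Meg3.

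Each of the maternal RNAs rose with the change to EpiLC in each genotype. In XX, Meg3 went from 16.9 ± 7.61 to 176 ± 50.4 TPM, Rian from 14.6 ± 3.22 to 178 ± 14.1 TPM and Mirg from 4.11 ± 1.65 to 50.5 ± 5.83 TPM (SD, n = 3 each). The fitted folds were 10.2 (95% interval 5.57 to 18.6) for Meg3, 11.7 (7.41 to 18.4) for Rian and 10.4 (6.10 to 17.7) for Mirg. All 3 were called higher by limma (adjusted p = 4.16e-06, 6.44e-08 and 8.74e-07), where 19.2% of all tested genes were called higher and 12.2% lower, and 29.2% were higher without overlap between libraries. The same held on scaled values, with folds of 8.57, 9.87 and 9.12, beside 23% of all tested genes called higher. Among the 14972 tested genes they ranked 65, 50 and 61 from the highest log2 fold change.

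In XY cells, Meg3 went from 55.8 ± 24.0 to 404 ± 150.2 TPM, Rian from 74.1 ± 13.8 to 392 ± 78.3 TPM and Mirg from 20.6 ± 4.92 to 156 ± 38.3 TPM (SD, n = 3 each). The fitted folds were 7.26 (95% interval 3.97 to 13.3), 5.21 (3.31 to 8.21) and 7.23 (4.24 to 12.3). All 3 were called higher (limma adjusted p = 1.55e-05, 4.76e-06 and 3.85e-06), beside 41.1% of all tested genes called higher, 9.36% lower and 44.9% higher without overlap. On scaled values, which remove the general shift of XY EpiLC, the folds were 4.38, 3.15 and 4.38, and all 3 were still called (limma adjusted p = 0.000167, 8.11e-06 and 2.35e-06), beside 24.5% of all tested genes.

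In Tet3-/- cells, Meg3 went from 40.9 ± 6.65 (SD, n = 4) to 139 ± 58.7 TPM (SD, n = 3), Rian from 43.1 ± 12.4 to 239 ± 122 TPM and Mirg from 14.6 ± 5.41 to 65.7 ± 39.8 TPM. The fitted folds were 3.18 (95% interval 1.81 to 5.59), 5.18 (3.39 to 7.92) and 4.02 (2.44 to 6.63). All 3 were called higher (limma adjusted p = 0.00215, 3.02e-06 and 0.000123), beside 13.6% of all tested genes called higher, 21.5% lower and 14.9% higher without overlap. On scaled values the folds were 3.51, 5.71 and 4.43, again all called, beside 23.7% of all tested genes. The wide SD of Rian and Mirg in Tet3-/- EpiLC comes with mutant #3, at 379 and 112 TPM against at most 177 and 43.7 TPM in the other mutants. In the same library the summed TPM of 3 mesendoderm markers (T, Mixl1, Eomes) was 124.5, against 2.95 and 3.16 in mutants #1 and #4. T, Mixl1 and Eomes were each above 0 in all 3 of these libraries, and their part in the Rian and Mirg values was not tested. Without mutant #3 the log2 fold changes of Meg3, Rian and Mirg were 1.37, 1.98 and 1.55, and all 3 were still called (limma adjusted p = 0.0143, 1.21e-05 and 0.000742), beside 11.1% of all tested genes called higher and 33.0% lower. The mean of Mirg in Tet3-/- EpiLC was 42.7 TPM and that of Dlk1 0.0612 TPM without that library, against 65.7 and 0.153 TPM with it.

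**Figure D2:**
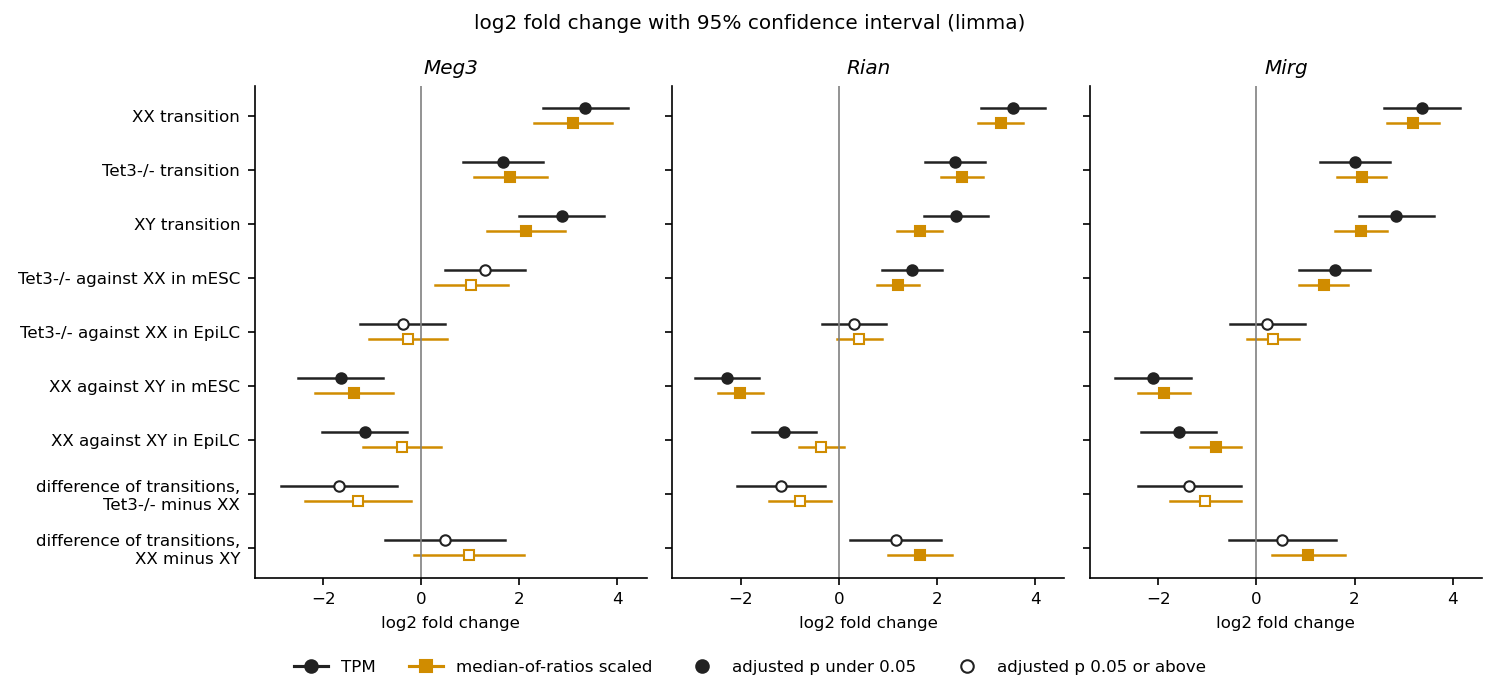
log2 fold changes of Meg3, Rian and Mirg with 95% confidence intervals in 9 comparisons, from TPM (circles) and from median-of-ratios scaled values (squares); filled symbols have a limma adjusted p under 0.05. All 3 transitions are filled on both scales for each gene, while XX against XY in EpiLC is filled on scaled values for Mirg only.

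Before the change, XX mESC were the lowest of the 3 groups. Against XY mESC, XX mESC had 3.12-fold less Meg3, 4.84-fold less Rian and 4.32-fold less Mirg (log2 differences of -1.64, -2.28 and -2.11, SE 0.41, 0.31 and 0.37). All 3 were called lower by limma (adjusted p = 0.0113, 5.56e-05 and 0.000591), where 7.73% of all tested genes were called lower in XX. No XX library overlapped an XY library for any of the 3, which was true of 12.6% of all tested genes in this direction. The Meg3 call was lost in a fit of these groups alone (limma adjusted p = 0.0949), without XY 3, at -1.39 (limma adjusted p = 0.0641), and on scaled values without XY 2, at -1.01 (limma adjusted p = 0.0557). Summed mesendoderm markers ranged from 0.481 to 0.702 TPM in XX mESC and from 7.32 to 11.8 TPM in XY mESC, and their part in the difference was not tested.

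Tet3-/- mESC had more of the maternal RNAs than XX mESC, which come from the same line. Meg3 was 2.46-fold higher (95% interval 1.40 to 4.32), Rian 2.79-fold (1.83 to 4.27) and Mirg 3.02-fold (1.83 to 4.98), and no mutant library overlapped an XX library for any of the 3. In 8.23% of all tested genes the mutants lay above XX without overlap. limma called Rian (adjusted p = 0.0257) and Mirg (adjusted p = 0.0421) but not Meg3 (adjusted p = 0.174), where 0.494% of all tested genes were called higher. They stood at ranks 28, 19 and 45 from the highest log2 fold change of 14972 genes. On scaled values the folds were 2.31 for Rian, 2.59 for Mirg and 2.02 for Meg3 (limma adjusted p = 0.00385, 0.00399 and 0.143), beside 1.58% of all tested genes called higher.

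These calls on TPM depended on single libraries. Rian lost its call without XX 1 (log2 1.30, limma adjusted p = 0.182), XX 3 (1.54, 0.0637), or mutants #2 (1.32, 0.0648), #3 (1.44, 0.0508) or #4 (1.52, 0.0764). Mirg lost it without XX 1 (1.33, limma adjusted p = 0.298), XX 3 (1.63, 0.113), or mutants #1 (1.74, 0.0616), #2 (1.40, 0.111), #3 (1.52, 0.0837) or #4 (1.72, 0.0794). On scaled values both calls held with each of the 7 libraries left out. Summed naive and EpiLC markers of the 2 groups overlapped, with 194 to 337 and 261 to 339 TPM for the naive list and 19.1 to 28.5 and 22.0 to 29.3 TPM for the EpiLC list. The 3 mesendoderm markers summed to 0.481 to 0.702 TPM in XX and 0.915 to 1.68 TPM in Tet3-/- mESC, and their part in the difference was not tested.

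In EpiLC the Tet3-/- and XX libraries overlapped for all 3 RNAs on TPM, and none was called. The log2 differences were -0.38 (95% interval -1.25 to 0.49) for Meg3, 0.31 (-0.34 to 0.97) for Rian and 0.22 (-0.55 to 0.99) for Mirg (limma adjusted p = 0.989, 0.965 and 1); the intervals hold differences in both directions. Beside this count of 0 called members, 1.08% of all tested genes were called in either direction. An unadjusted limma p under 0.05 was found for 0 of the 3, beside 1439 of all 14972 tested genes. On scaled values 0 of 3 were called too, beside 5.44% of all tested genes, though the mutants lay above XX without overlap for Rian (log2 0.42, limma adjusted p = 0.322), as did 13% of all tested genes. Without mutant #3 the Rian and Mirg differences turned to -0.08 and -0.23.

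XX EpiLC remained below XY EpiLC on TPM, with 2.23-fold less Meg3, 2.16-fold less Rian and 3.00-fold less Mirg (limma adjusted p = 0.0309, 0.00936 and 0.00283). All 3 were called and did not overlap, beside 42% of all tested genes called lower in XX EpiLC and 65.8% lower without overlap. On scaled values only Mirg was called (1.78-fold less, limma adjusted p = 0.0169), beside 15.1% of all tested genes called lower, and Meg3 and Rian had log2 differences of -0.40 (95% interval -1.19 to 0.39) and -0.36 (-0.82 to 0.10). The Mirg call on scaled values was lost without XX 1 (-0.80), XY 2 (-0.78) or XY 3 (-0.76) of EpiLC. On TPM the Meg3 call was lost without XX 1 (-0.89), XY 2 (-0.97) or XY 3 (-0.98), and with no filter (limma adjusted p = 0.0724). The 2 EpiLC groups also differed in markers of cell state. Naive markers summed to 31.9 to 36.3 TPM in XX and 7.94 to 8.56 TPM in XY EpiLC, and EpiLC markers to 38.8 to 46.2 and 250 to 317 TPM. Summed mesendoderm markers were 21.4 to 32.7 TPM in XY and 2.88 to 3.17 TPM in XX EpiLC, and T, Mixl1 and Eomes were each higher in XY without overlap. Summed fibroblast markers were 11.3 to 11.8 TPM in XY and 4.40 to 5.87 TPM in XX EpiLC, a gap carried by Thy1 (8.36 against 2.77 TPM) and Fbn1 (1.53 against 0.566 TPM). Col1a1 (0.0834 against 0.393 TPM) and Pdgfrb (0.154 against 0.345 TPM) were lower in XY EpiLC, and Lum was at 0 in all XX EpiLC libraries. The part of these markers in the differences was not tested.

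Whether the rise itself differed between genotypes was tested directly. The XX and XY transitions are separate sets of libraries, while both differences below share the XX libraries. The transition of Tet3-/- minus that of XX gave log2 differences for Meg3, Rian and Mirg of -1.68 (95% interval -2.87 to -0.49), -1.17 (-2.07 to -0.28) and -1.37 (-2.43 to -0.32), and 0 of 3 were called (limma adjusted p = 0.41, 0.465 and 0.47). All 3 had an unadjusted limma p under 0.05 (0.00836, 0.0132 and 0.0137), as had 1152 of all 14972 tested genes. For this difference 0.174% of all tested genes were called at the adjusted threshold. On scaled values 0 of 3 were called as well, beside 0.621% of all tested genes. For XX minus XY the differences were 0.49 (95% interval -0.74 to 1.72), 1.16 (0.24 to 2.09) and 0.53 (-0.56 to 1.61), with none called (limma adjusted p = 0.604, 0.0839 and 0.526), beside 16% of all tested genes called. Rian alone had an unadjusted limma p under 0.05 (0.0167), as had 4364 of all 14972 tested genes. On scaled values Rian (1.65, limma adjusted p = 0.00096) and Mirg (1.06, limma adjusted p = 0.0398) rose more in XX than in XY, and Meg3 was not called (0.97, limma adjusted p = 0.213), where 11% of all tested genes were called higher. With each of the 12 libraries left out in turn, the Rian call on scaled values was kept every time (log2 1.43 to 1.76). The Mirg call was lost in 11 of these 12 fits (0.94 to 1.13, limma adjusted p = 0.0523 to 0.0962) and kept without XX 2 of mESC alone (1.16, limma adjusted p = 0.0289).

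Placed in order, the mean levels of Meg3 ran from XX mESC through Tet3-/- mESC, XY mESC, Tet3-/- EpiLC and XX EpiLC to XY EpiLC. For Rian and Mirg the order was the same except that XX EpiLC came before Tet3-/- EpiLC. Neighbours whose libraries overlapped were Tet3-/- and XY mESC for Meg3 and Mirg, Tet3-/- and XX EpiLC for all 3, and Tet3-/- and XY EpiLC for Rian. On scaled values the orders of Meg3 and Mirg were the same, while Rian was highest in Tet3-/- EpiLC, at 249 ± 34.9 (SD, n = 3), beside 238 ± 22.4 in XY and 185 ± 0.326 in XX EpiLC (SD, n = 3 each). On that scale XX and XY EpiLC overlapped for Meg3, and Tet3-/- and XY EpiLC for Mirg as well as Rian. Fewer cells that express a transcript and less RNA per cell cannot be told apart in these bulk libraries.

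The ratio between Rian and Mirg varied over a narrower range than that of either to Meg3. The ratio of Mirg to Rian TPM ranged from 0.222 to 0.418 over the 19 libraries, a 1.88-fold range, while both RNAs themselves varied far more. Rian to Meg3 ranged from 0.622 to 2.09 (3.37-fold) and Mirg to Meg3 from 0.157 to 0.655 (4.16-fold). XX 2 stood apart among XX mESC with a Rian to Meg3 ratio of 1.68, against 0.709 and 0.622 in XX 1 and XX 3. Mutants #2 and #3 of mESC had 1.37 and 1.41, against 0.730 and 0.803 in mutants #1 and #4. Summed primitive endoderm markers (Gata4, Gata6, Sox17, Pdgfra, Foxa2, Afp) were 0.979 TPM in XX 2 of mESC, against 2.85 and 4.16 TPM in XX 1 and XX 3. They were 0.665 and 0.746 TPM in mutants #2 and #3 of mESC, against 2.78 and 2.77 TPM in mutants #1 and #4. Mutant #3 of EpiLC went the other way, with 13.2 TPM and a ratio of 1.89. The largest parts of its sum were Foxa2 (5.27 TPM) and Sox17 (3.37 TPM). In XX mESC the largest part was Gata6 (0.459 to 3.28 TPM), so the sum does not stand for the same genes in both. The part of these markers in the ratios was not tested. The highest Mirg to Rian ratios were those of the 3 XY EpiLC libraries, at 0.373, 0.399 and 0.418.

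**Figure D3:**
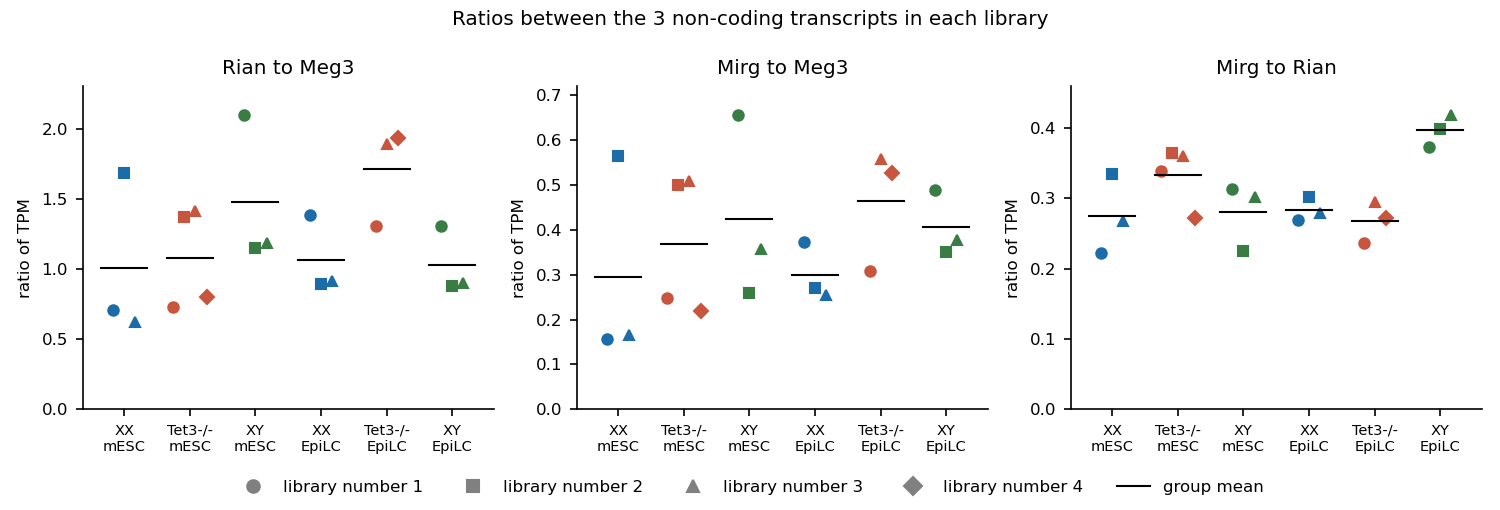
Ratios of TPM between Meg3, Rian and Mirg in each library by group, with a line at the group mean and all axes starting at 0. The Mirg to Rian ratio stays between 0.222 and 0.418, whereas Rian to Meg3 splits the XX and the Tet3-/- mESC libraries into higher and lower values.

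Across all 19 libraries Pearson's r of log2(TPM + 1) was 0.95 for Meg3 with Rian, 0.945 for Meg3 with Mirg and 0.989 for Rian with Mirg. These describe libraries that share cell state and the TPM scale. Within the 10 mESC libraries r was 0.824, 0.749 and 0.976, and within the 9 EpiLC libraries 0.856, 0.89 and 0.984. On scaled values the EpiLC r for Meg3 with Rian was 0.154, so that relation depends on the scale.

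Several annotated transcripts share each gene's TPM. The leading one of Meg3, with 3 exons and 1498 bases, held 30.5% to 40.4% of Meg3 TPM over the 19 libraries, and the next, with 10 exons, held 20.3% to 32.1%. The leading transcript of Rian, with 11 exons, held 34.8% to 49.0%, and that of Mirg, with 5 exons, 15.9% to 30.8%. A Meg3 transcript of 5 exons and 797 bases had 1.79% ± 0.873 (SD, n = 3) in XX EpiLC and 8.70% ± 8.06 (SD, n = 3) in XX mESC, where single libraries ranged from 1.11% to 17.2%. Shares of overlapping transcripts are estimates of the quantification and were not tested.

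Besides the 3 members, 10 further genes from Dlk1 to Dio3 were tested, of which 8, 5 and 9 were called higher in the XX, Tet3-/- and XY transitions and 0, 1 and 1 lower, beside 19.2%, 13.6% and 41.1% of all tested genes called higher. Without mutant #3 of EpiLC the Tet3-/- counts were 4 higher and 1 lower, beside 11.1% and 33.0% of all tested genes. The hairpin rows Mir432 and Mir433 and the non-coding B830012L14Rik would not have passed the filter on their mESC libraries alone. For these rows a call higher was in part set by the filter, so the counts are no separate measure of a rise in the domain. Gm37899, a transcript on the same strand 128 kb after the start of Meg3, went from 0.312 ± 0.0968 to 4.56 ± 0.701 TPM in XX (SD, n = 3 each). It went from 0.803 ± 0.256 (SD, n = 4) to 5.07 ± 3.31 TPM (SD, n = 3) in Tet3-/-, and from 1.69 ± 0.770 to 14.6 ± 4.93 TPM in XY (SD, n = 3 each). It rose in each, by log2 2.08, 1.63 and 2.52 (limma adjusted p = 3.21e-05, 0.000168 and 2.03e-06). Gm26945, which lies within the annotated span of Rian at 99.3 kb, rose by log2 1.44, 1.09 and 1.51, and B830012L14Rik at 155 kb by 1.11, 0.83 and 1.44. Without mutant #3 the Tet3-/- EpiLC mean of Gm37899 was 3.16 TPM, and the Tet3-/- log2 fold changes were 1.21 for Gm37899 (limma adjusted p = 0.000789) and 0.73 for Gm26945 (limma adjusted p = 0.00842). B830012L14Rik lost its Tet3-/- call without that library (0.50, limma adjusted p = 0.0749). These non-coding RNAs lie on the strand of Meg3, and reads of Gm26945 may be shared with Rian.

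Dio3, which encodes a thyroid hormone deiodinase and is read mainly from the paternal copy, lies at the far end of the domain, 738 kb after the start of Meg3. Its level was 1.40 ± 0.173 TPM in XX mESC and 0.944 ± 0.107 TPM in XX EpiLC (SD, n = 3 each), a log2 fold change of -0.30 that was not called (limma adjusted p = 0.39). It fell in XY, from 1.15 ± 0.653 to 0.0714 ± 0.0248 TPM (SD, n = 3 each, log2 -0.96, limma adjusted p = 0.00328). In Tet3-/- it fell from 1.25 ± 0.648 (SD, n = 4) to 0.318 ± 0.230 TPM (SD, n = 3, log2 -0.73, limma adjusted p = 0.0168). Without mutant #3, which had 0.584 TPM, the Tet3-/- EpiLC mean of Dio3 was 0.185 TPM and the log2 fold change -0.87 (limma adjusted p = 0.00932). Dio3 was the one tested gene of the domain that was called lower in a transition. In EpiLC it reached at most 1.06 TPM in XX (median 0.923), 0.0948 TPM in XY and 0.584 TPM in Tet3-/-. It would thus not have passed the filter on its EpiLC libraries alone, and its calls lower were in part set by the filter.

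Hairpin rows in a total RNA library count fragments that match the hairpin's sequence and do not measure mature miRNA. They are short, so few fragments set a large TPM. Mir1193, whose arms head the sequences above, was listed at 0 in all 3 XX mESC libraries and had 6.45 ± 3.17 TPM in XX EpiLC (SD, n = 3). In XY it had 2.15 ± 1.91 TPM in mESC and 21.1 ± 13.5 TPM in EpiLC (SD, n = 3 each). In Tet3-/- it had 1.72 ± 2.58 TPM in mESC (SD, n = 4) and 5.14 ± 1.83 TPM in EpiLC (SD, n = 3). These Tet3-/- libraries overlapped, with up to 5.46 TPM in mESC and from 3.98 TPM in EpiLC. The Tet3-/- transition of Mir1193 was not called (log2 1.59, limma adjusted p = 0.0567). Mir1197 was listed at 0 in 1 of 3 XX, 2 of 3 XY and 3 of 4 Tet3-/- mESC libraries, with means of 1.44 ± 1.30, 0.407 ± 0.705 (SD, n = 3 each) and 0.355 ± 0.709 TPM (SD, n = 4). In EpiLC it had 9.77 ± 3.59 TPM in XX, 5.52 ± 3.27 TPM in XY and 4.24 ± 1.56 TPM in Tet3-/- (SD, n = 3 each), so its XX mean lay above its XY mean, with overlapping libraries, unlike Meg3, Rian and Mirg on TPM. Mir1188, which lies inside Rian, was listed at 0 in all XX and Tet3-/- mESC libraries and had 7.13 ± 5.77 TPM in XX EpiLC and 4.57 ± 3.31 TPM in Tet3-/- EpiLC (SD, n = 3 each), the latter 2.83 TPM without mutant #3. In XY mESC Mir1188 was above 0 in every library, with 2.19 ± 0.940 TPM, and it had 11.9 ± 6.53 TPM in XY EpiLC (SD, n = 3 each). Mir433, opposite Rtl1 on the other strand, was listed at 0 in all XX and XY mESC libraries, had 2.24 ± 1.42 TPM in XX EpiLC (SD, n = 3) and was at 0 in 2 of the 3 Tet3-/- EpiLC libraries. It had 3.89 ± 2.99 TPM in XY EpiLC (SD, n = 3). In Tet3-/- its means were 0.620 ± 1.24 TPM in mESC (SD, n = 4) and 0.389 ± 0.673 TPM in EpiLC (SD, n = 3). Group means of these 4 rows were higher in EpiLC than in mESC except for Mir433 in Tet3-/-, with SDs that were large beside the means.

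**Figure D4:**
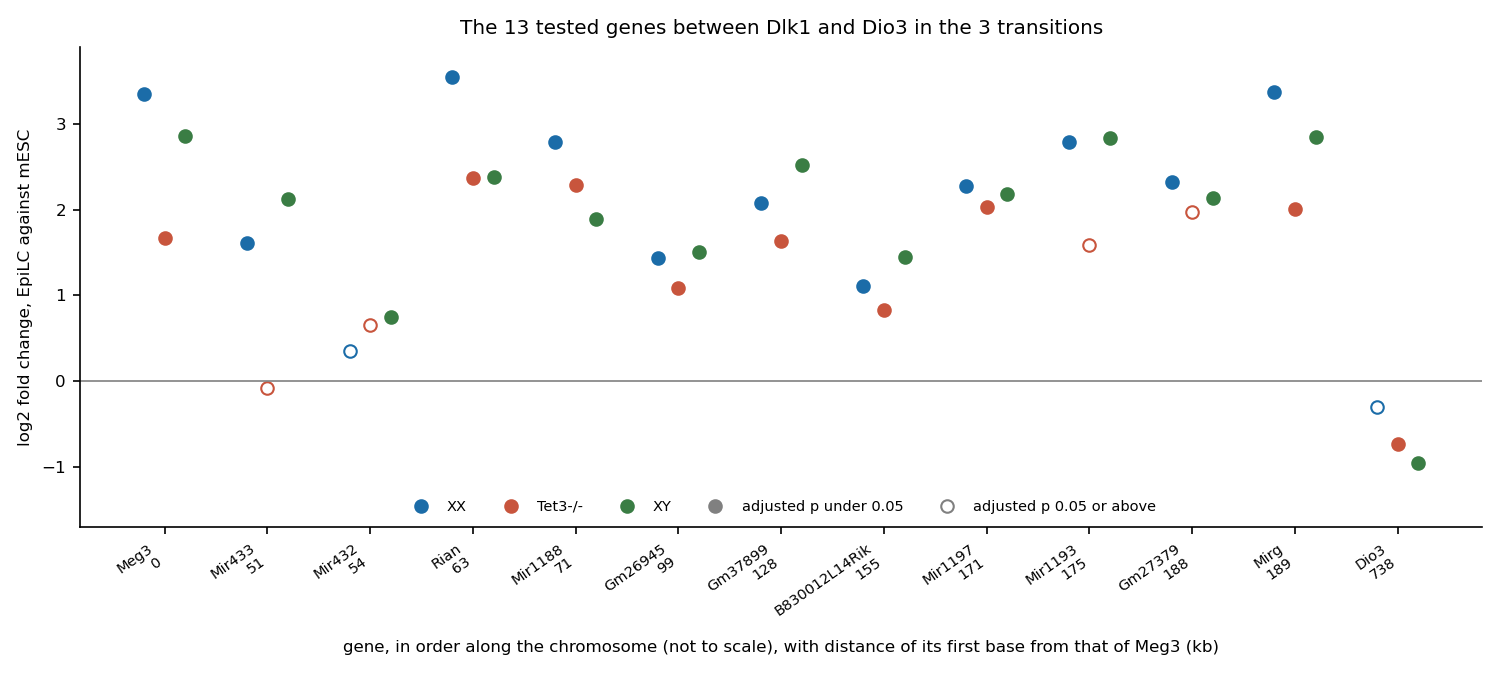
log2 fold changes from mESC to EpiLC in XX, Tet3-/- and XY for the 13 tested genes between Dlk1 and Dio3, in chromosomal order with the distance from the start of Meg3 in kb; filled points have a limma adjusted p under 0.05. Points from Meg3 to Mirg lie above 0 except Mir433 in Tet3-/- (-0.08), and the points of Dio3 lie below 0; hairpin values rest on a pseudocount of 1 where a group was listed at 0.

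Of 9 tested flanking genes, Dio3 included, 0, 0 and 4 were called higher in the XX, Tet3-/- and XY transitions and 1, 5 and 2 lower, with median log2 fold changes of -0.15, -0.60 and 0.67. Over all tested genes 19.2%, 13.6% and 41.1% were higher and 12.2%, 21.5% and 9.36% lower. Dio3 is among those lower in Tet3-/- and XY, where its calls were in part set by the filter. On scaled values 0, 0 and 1 were higher and 4, 5 and 4 lower, where 3443, 3550 and 3672 of all 14972 tested genes were higher and 4035, 4181 and 3954 lower. Wdr25 had log2 fold changes of -0.14, -0.81 and 0.67, of which the last was 0.04 on scaled values.

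Of 19 tested genes that set or keep imprints, 4, 3 and 8 were called higher and 3, 6 and 4 lower in the XX, Tet3-/- and XY transitions, with medians of -0.33, -0.76 and 0.38. The counts of higher genes are near the 19.2%, 13.6% and 41.1% of all tested genes, and are read as no result about the list. Those lower stand beside 12.2%, 21.5% and 9.36%, and without mutant #3 the Tet3-/- counts were 2 higher and 11 lower, beside 11.1% and 33.0% of all tested genes. On scaled values 5, 4 and 8 were higher and 8, 11 and 8 lower, with medians of -0.59, -0.63 and -0.33, so the sign of the XY median depends on the scale. Over all 14972 tested genes, 3443, 3550 and 3672 were higher and 4035, 4181 and 3954 lower on that scale. The de novo DNA methyltransferase genes Dnmt3a and Dnmt3b rose in all 3 transitions, by log2 1.79, 2.14 and 2.68 for Dnmt3a and 2.17, 2.20 and 3.75 for Dnmt3b. Dppa3, which encodes a maternal factor that shields imprints from demethylation, fell in all 3, with log2 fold changes of -3.92, -4.89 and -4.62. Aff3, whose product binds the control region of this domain, was called higher in all 3, from 0.0652 ± 0.0112 to 1.23 ± 0.447 TPM in XX and from 0.0807 ± 0.0249 to 11.7 ± 2.31 TPM in XY (SD, n = 3 each). Its Tet3-/- log2 fold change of 0.43 (limma adjusted p = 0.0369) was 0.34 and not called without mutant #3 (limma adjusted p = 0.0958). The Tet3-/- EpiLC libraries had 0.264 to 0.644 TPM of Aff3. Aff3 passed the filter only through XX and XY EpiLC libraries, so its calls higher were in part set by the filter. Zfp57, which encodes the factor that binds the methylated hexamer, fell in XY (-1.76, limma adjusted p = 8.31e-05) and Tet3-/- (-1.26, limma adjusted p = 0.00147) and was called in XX on scaled values only (-0.33, limma adjusted p = 0.451 on TPM, and -0.59, limma adjusted p = 0.00182 scaled). Between Tet3-/- and XX mESC, where Rian and Mirg were called, limma called 0 of the 19 in either direction, beside 0.601% of all tested genes. That count is near the share and is read as no result about the list. An unadjusted limma p under 0.05 was found for 0 of the 19, beside 1359 of all 14972 tested genes. On scaled values 1 of the 19 was called lower, beside 253 of all 14972, and 4 had an unadjusted limma p under 0.05, beside 2263.

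Most other imprinted genes that were called had risen. Of 22 tested genes of other domains, 16, 11 and 13 were called higher and 1, 2 and 0 lower in the XX, Tet3-/- and XY transitions, with medians of 1.16, 0.98 and 1.18 beside 0.14, -0.13 and 0.54 over all genes, of which 19.2%, 13.6% and 41.1% were called higher. Peg3, a paternally expressed zinc finger gene, rose by log2 4.25, 4.11 and 3.77, the Tet3-/- value being 3.52 without mutant #3. In Tet3-/- against XX mESC limma called 0 of the 22 in either direction, beside 0.601% of all tested genes. An unadjusted limma p under 0.05 was found for 5 of the 22, beside 1359 of all 14972 tested genes. On scaled values 2 of the 22 were called lower, beside 253 of all 14972. Of 9 tested Notch pathway genes, a pathway that DLK1 is known to modulate, 5, 5 and 7 were called higher and 0, 0 and 1 lower, beside the same shares of all genes, and without mutant #3 the Tet3-/- counts were 3 higher and 1 lower, beside 11.1% and 33.0%. They include Jag2, a ligand gene, with log2 fold changes of 2.94, 2.50 and 1.79. On scaled values 6, 6 and 6 of the 9 were higher and 1, 1 and 2 lower. On that scale 3443, 3550 and 3672 of all 14972 tested genes were higher and 4035, 4181 and 3954 lower. Dll1 and Dll3, called higher in all 3 transitions, passed the filter only through EpiLC libraries. Notch4, called lower in XY, passed it only through mESC libraries. For these genes the calls were in part set by the filter, so the counts are no separate result about the pathway.

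The genes whose log2(TPM + 1) over the 19 libraries was most like that of Meg3, among tested genes outside the domain, were 4930556M19Rik (Pearson's r 0.967), Klhl8 (0.958), Fam83b (0.957), Zfp768 (0.956) and Pid1 (0.956). Pid1 had 6.56, 9.89 and 15.1 TPM on average in XX, Tet3-/- and XY mESC and 26.7, 30.1 and 57.2 TPM in the EpiLC of the same genotypes. For Dlk1 they were Slc27a2 (0.979), Cabp7 (0.977), Cnksr2 (0.973), Ptn (0.972) and Gpm6b (0.971), all highest in XY EpiLC. On scaled values Zfp768 and Pid1 were still among the first 5 for Meg3, and Slc27a2 and Cabp7 for Dlk1.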

How the data were processed

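Total RNA libraries depleted of rRNA (TruSeq Stranded Total RNA Gold, per the labels' protocols) gave 1 deposited table of TPM for 140948 transcripts in 19 libraries. FastQC 0.11.7, Trimmomatic 0.35, Salmon 1.1.0 and GRCm38 are named in the submitters' processing notes. The annotation release and strand setting are not given in the sources used here. TPM keep no depth, so counting error is unknown. Transcripts were summed per gene with GENCODE M21, which matched 139357 with and 495 without their version, and left out 1096, with 0.0454% to 0.215% of TPM.

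Genes that reached a TPM of 1 in 3 or more libraries were fitted with limma 3.58.1 (R 4.3.3, variance trend) on log2(TPM + 1), over all 6 groups, with Benjamini-Hochberg adjustment within each of 9 contrasts over 14972 genes, and were called at an adjusted p under 0.05. The script was tested on simulated data. Scaled values are TPM divided by median-of-ratios size factors. Named were the 5 members, the 5 tested genes outside the domain most like Meg3 and Dlk1, and genes of the lists. Members and lists were chosen with earlier results of these data known. Alternatives were another pseudocount, other filters, scaling, only the groups compared, no variance trend, a replicate block, and each library left out. Scaling with a library left out, domain and list counts without mutant #3 of EpiLC, and likeness on scaled values, were chosen after seeing the data.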

Additional observations from a re-analysis of the deposited data

Results flagged for a closer look

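Dlk1 was listed at 0 TPM in mutant #3 of Tet3-/- mESC, while the other 3 mutants had 0.0593 to 0.065 TPM. The gap exceeded the 95% critical value of Dixon's test for 4 samples, which chance exceeds in about 1 of 20 groups.

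On scaled values the transition differed between XX and XY by a log2 difference of 1.65 for Rian (95% interval 1.00 to 2.30, limma adjusted p = 0.00096) and of 1.06 for Mirg (0.31 to 1.81, limma adjusted p = 0.0398), both larger in XX. With each of 12 libraries left out in turn the Rian call was kept each time, while the Mirg call was lost in 11 of 12 fits (0.94 to 1.13, limma adjusted p = 0.0523 to 0.0962). On TPM the same differences were 1.16 and 0.53 and were not called (limma adjusted p = 0.0839 and 0.526). With no filter on low values the transition of Dlk1 differed by -0.44 (SE 0.11, limma adjusted p = 0.0288), larger in XY. In the filtered fit on TPM this difference had a median of -0.40 over all tested genes, and 16% of them were called.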

How the results depend on the processing

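Meg3, Rian and Mirg were called higher in the XX, XY and Tet3-/- transitions under each alternative run. In Tet3-/- against XX mESC the 2 members called became 0 with no filter, 1 with TPM of at least 5, 0 with only the groups compared, and 0 to 2 with a library left out. In XX against XY EpiLC the 3 called became 1 on scaled values, and 0 to 1 when a library was left out as well. For the transition of XX minus that of XY, the 0 called became 1 with no filter (Dlk1), 2 on scaled values (1 to 2 with a library left out as well, Mirg being lost in 11 of 12 fits), and 1 (Rian) with only the groups compared. Without mutant #3, Tet3-/- against XX EpiLC turned from 0.31 to -0.077 for Rian and from 0.22 to -0.23 for Mirg. Leaving out each library in turn gave -0.077 to 0.54 for Rian and -0.23 to 0.47 for Mirg. Of all values of single members, 544 kept their direction and side of the threshold, 40 lost and 17 gained a call, and 2 reversed. The cause was not tested.

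Whether replicate numbers pair the libraries between states cannot be settled with so few libraries per group. Correlations of deviations between states at the same number were 0.0695, -0.0488 and 0.032 in XX, 0.186, -0.0426 and 0.243 in XY, and 0.271, 0.303 and -0.0202 in the mutants. At different numbers they ranged from -0.118 to 0.0569 in XX, from -0.258 to 0.111 in XY and from -0.344 to 0.282 in the mutants. Within mESC, deviations of XX 2 went with those of mutants #2 (0.443) and #3 (0.558). Those of XX 1 and XX 3 went with mutants #1 and #4 (0.313 to 0.517). Every other pair of XX with Tet3-/- mESC had a negative correlation, from -0.344 to -0.556. The fits of Tet3-/- against XX mESC did not model this split, and its source was not tested. With the replicate block, 1 member (Rian, 1.16, limma adjusted p = 0.0414) was called for the transition of XX minus that of XY in place of 0, and the other 8 comparisons kept their counts.

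TPM hold no depth, so it is unknown how many reads lie behind Dlk1, Rtl1 and the hairpin rows.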
